A study of Mus musculus with 18 samples.

Results

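Chemokine and chemokine receptor genes were examined in 3 sorted populations of mouse mammary cells. Members were taken by gene symbol: every probe set whose platform symbol begins with Cxcl, Ccl, Xcl, Cx3cl, Cxcr, Ccr or Cx3cr, followed by a number and at most 1 letter. The rule found 76 of 45037 probe sets on the chips, which belong to 48 of 18193 named genes, 33 of them ligands and 15 receptors. It used no measured value. The genes lie on 11 chromosomes, with 14 on chromosome 11, 10 on chromosome 5 and 9 on chromosome 9.

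The study profiled RNA from mammary tissue on 2 Affymetrix arrays, MOE430 chip A and chip B, with 3 RNA samples of each population and 18 arrays in all. CFC is a fraction rich in colony forming cells, progenitors assayed by their growth in culture, and held 1 of them per 10 cells. The MaSC fraction, assayed by transplantation, is enriched for stem cells of the gland and held 1 per 50 to 100 cells. MYO holds basal, myoepithelial cells at an estimated purity of 94%, described as similar to stem cells in phenotype but poor in them. RNA was prepared from 3000 to 4000 CFC cells, 2000 to 4000 MaSC cells or 3000 to 24000 MYO cells. By these assays, most cells of the CFC and MaSC fractions did not score as the cell the fraction is named for. The sources used here do not give the strain, age or any treatment of the mice. Biological triplicates are stated for CFC alone, so p-values may measure only a technical spread in the other populations.

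Chemokines are small secreted proteins that bind G protein-coupled receptors and direct the migration of cells along their gradients. Many are induced in inflammation, while others are made constantly and keep cells in their tissue. Cxcl12 acts through the receptor Cxcr4, and the atypical receptor Ackr3 also binds it and removes it from the surroundings. In the mammary gland, chemokines are made by epithelium and by stroma, and leukocytes are the best known cells that carry their receptors.

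Basal epithelial genes were higher, and luminal genes lower, in MYO and MaSC than in CFC. Of 10 basal epithelial markers, each read from 1 probe set, 9 were higher than in CFC both in MaSC and in MYO. Their median log2 fold changes were 4.80 and 4.57. Other tested probe sets of Krt17, Acta2, Myh11 and Trp63 were not called, nor was Krt14 1455573_at (0.12 in MaSC and 0.44 in MYO). Krt14 1460347_at was called higher in both (5.95 and 5.62), and Itga6 1422444_at in MYO only (1.71). Of 11 luminal markers, 6 were lower in MaSC and 9 in MYO. Other probe sets of Csn3 (-0.16 in MaSC and 0.20 in MYO) and Epcam (-0.20 and -0.50) were not called, nor was Cldn3 1426332_a_at (-2.25 and -2.56). Krt8 1423691_x_at and 1435989_x_at were called lower in MYO only, and Cd24a 1416034_at in MaSC only. Cldn3 1451701_x_at and 1460569_x_at and Cd24a 1437502_x_at were called lower in both. Between MaSC and MYO 0 markers of either list were called, but so were 0 of all 41553 tested probe sets. That count therefore does not tell whether the markers differ. The median log2 fold change in MaSC against MYO was -0.19 over the basal list and 0.84 over the luminal list. Signals are MAS5 intensities, and each array had a trimmed mean of about 1500. The share of probe sets at a signal of 300 or more was 70.0% to 75.6% on chip A and 76.8% to 80.3% on chip B. The ratio of 3′ to 5′ Actb control signal, a sign of RNA length, was 29.96 in MYO1 on chip A and 55.5 on chip B, against 10.6 to 16.1 in the other 8 samples. The same ratio of Gapdh in MYO1 was 16.7 on chip A, against 8.27 to 14.2 in the others, and 13.7 on chip B, within their 9.29 to 14.5. Both ratios were at least 8.27 on every array, so the 3′ signal was well above the 5′ signal in all samples. The 100 probe sets common to the chips allow a check of the link between them: for 6 of 9 RNA samples the best match on chip B was the sample itself. For CFC3, MYO3 and MaSC3 a different sample of the population matched better, so these values do not settle their link.

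Of the 76 member probe sets, 68 were tested, having a signal of at least 300 on 3 or more of 9 arrays. They represent 47 genes. The 8 others were the only probe set of Ccl12, 2 of Ccr9 and 1 each of Ccl9, Cxcl9, Ccr2, Cx3cr1 and Cxcr6. A signal of 300 was reached on all 9 arrays by 24 member probe sets, and every one of the 76 reached it on at least 1 array. Fold changes are on the log2(signal + 150) scale, with SE from limma, and a probe set was called at an adjusted p under 0.05 across its chip.

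Cxcl14 had the largest log2 fold change among the tested members. Both of its probe sets were called higher in MaSC and in MYO than in CFC. Cxcl12 was called higher in MYO than in CFC by 1 of its 3 probe sets, and Cxcr4, the Cxcl12 receptor, was called lower in both populations than in CFC. These are 3 member probe sets of 68 in MaSC against CFC, where 0.621% of all 41553 tested probe sets were called, and 4 of 68 in MYO against CFC, where 0.895% were. All of them lie on chip A, where the called shares were 1.18% and 1.71% of 20159. Both comparisons use the same CFC arrays and so share their control values. Between MaSC and MYO limma called 0 of 68, and 0% of all probe sets. Without the variance trend of limma, 1418457_at of Cxcl14 was the 1 member that kept its calls.

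The sequences upstream of these 3 genes are shown because their levels differed between the populations. Each is the 250 bases before the gene's start in the RefSeq annotation of GRCm38.p6, written 5′ to 3′ on the gene's strand, with motif matches in capitals. Cxcl14 is at chr13:56296552-56296801 on the minus strand, Cxcl12 at chr6:117168285-117168534 on the plus strand and Cxcr4 at chr1:128592300-128592549 on the minus strand.
Cxcl14: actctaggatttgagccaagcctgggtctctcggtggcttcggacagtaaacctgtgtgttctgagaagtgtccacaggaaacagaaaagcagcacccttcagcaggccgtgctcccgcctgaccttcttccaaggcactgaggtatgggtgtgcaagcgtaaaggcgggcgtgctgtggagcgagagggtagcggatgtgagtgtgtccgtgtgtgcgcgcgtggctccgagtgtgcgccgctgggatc
Cxcl12: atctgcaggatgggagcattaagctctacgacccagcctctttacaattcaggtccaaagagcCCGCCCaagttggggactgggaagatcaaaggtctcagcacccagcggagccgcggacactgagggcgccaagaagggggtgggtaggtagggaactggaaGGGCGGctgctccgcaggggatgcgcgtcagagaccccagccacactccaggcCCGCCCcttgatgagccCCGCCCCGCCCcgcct
Cxcr4: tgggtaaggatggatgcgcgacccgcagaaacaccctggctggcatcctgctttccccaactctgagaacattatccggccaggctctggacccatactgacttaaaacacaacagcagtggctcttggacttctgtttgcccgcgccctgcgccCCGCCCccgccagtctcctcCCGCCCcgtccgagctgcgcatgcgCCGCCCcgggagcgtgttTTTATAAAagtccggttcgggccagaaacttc
The search covered both strands for the GC box GGGCGG, the TATA box TATAAA, the hypoxia response core ACGTG, a kappaB site and a CArG box. Cxcl12 had 5 GC boxes, of which the last pair overlap. Cxcr4 had 3 GC boxes and 2 overlapping TATA matches, on opposite strands, 25 to 32 bases before the start. No searched motif lay in the Cxcl14 window. In the same window of 32817 RefSeq promoters, 32.7% held a GC box, 12.4% the TATA letters, 16.6% the hypoxia core, 7.25% a kappaB site and 1.47% a CArG box.

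Cxcl14 encodes a secreted CXC chemokine made by many epithelia that attracts monocytes and immature dendritic cells in other tissues. Probe set 1418457_at had signals of 372, 1137 and 70.2 in CFC1 to CFC3, of 9724, 12281 and 5046 in the MYO samples, and of 7504, 5636 and 4729.9 in the MaSC samples. Every MYO and MaSC sample lay above every CFC sample, and the MYO and MaSC ranges overlapped. The group means ± SD (n = 3) were 527 ± 550.0 in CFC, 9017 ± 3669 in MYO and 5956 ± 1414 in MaSC. The log2 fold change was 3.50 ± 0.53 in MaSC against CFC (11.3-fold, adjusted p = 0.00015) and 4.02 ± 0.53 in MYO against CFC (16.3-fold, adjusted p = 1.04e-05). These calls held under all 20 alternatives tried, with adjusted p up to 0.0492 and 0.0122. The size was less certain, with log2 values of 2.84 to 4.15 in MaSC and 3.34 to 4.67 in MYO. It was 2.84 and 3.34 with a larger pseudocount, 4.12 and 4.65 with a smaller one, 4.15 and 4.67 without CFC2, and 2.87 and 3.39 without CFC3.

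The other Cxcl14 probe set, 1418456_a_at, had signals of 318, 1367 and 1291 in CFC, 3833, 10462 and 5089 in MYO, and 6019.6, 5113 and 3992 in MaSC. Again no CFC sample reached the lowest sample of the other populations. Its log2 fold changes were 2.35 ± 0.50 in MaSC (adjusted p = 0.0095) and 2.59 ± 0.50 in MYO (adjusted p = 0.00199) against CFC. Without CFC1 the MaSC call was lost (adjusted p = 0.0889), and without MYO2 the MYO call was lost (adjusted p = 0.0532). The ranking of the 9 samples was similar in both probe sets (Spearman's rho 0.817, a description). Cxcl14 did not pass the test between MaSC and MYO, at -0.52 ± 0.53 and -0.24 ± 0.50.

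Cxcl12, also known as stromal cell-derived factor, is a constantly made chemokine that retains and guides cells with Cxcr4. Probe set 1448823_at had signals of 105, 1159 and 374 in CFC, 4215, 5822 and 2783 in MYO, and 1098, 1451 and 2176 in MaSC. The MYO samples stood above all others, and the MaSC samples overlapped with CFC through CFC2. The log2 fold change was 2.92 ± 0.61 in MYO against CFC (7.59-fold, adjusted p = 0.00474), and the call was lost without MYO2 (adjusted p = 0.0852). The value was 2.34 with the larger pseudocount and 3.54 without CFC2. In MaSC against CFC it was 1.58 ± 0.61 (adjusted p = 0.385). In MaSC against MYO it was -1.35 ± 0.61, with no overlap of samples and no call (adjusted p = 0.999).

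The other Cxcl12 probe sets did not follow this order. Chip A probe set 1417574_at had 577, 1305 and 906 in CFC, 884, 1683 and 761 in MYO, and 2361, 1638 and 1406 in MaSC, with the highest mean in MaSC. Its MaSC samples lay above all CFC samples, a difference of 0.88 ± 0.61 that was not called (adjusted p = 0.775). Chip B probe set 1439084_at had 1265, 577 and 2213 in CFC, 1005, 1811 and 466 in MYO, and 1070.1, 423 and 740.4 in MaSC, with overlap between all populations. Their log2 fold changes in MYO against CFC were 0.21 ± 0.61 and -0.27 ± 0.83, neither called. The Cxcl12 result therefore rests on 1 of 3 probe sets. Fibroblasts are a known source of Cxcl12, and in the list of fibroblast and pericyte markers 0 of 15 tested genes were called in MaSC and 1, the collagen gene Col3a1, in MYO (3.004 ± 0.72, adjusted p = 0.0178). That call was lost without CFC1 (adjusted p = 0.151), CFC3 (0.0691), MYO1 (0.0872) or MYO2 (0.346). The other Col3a1 probe set, 1427884_at, overlapped between MYO and CFC and was not called (1.04 ± 0.76, adjusted p = 0.849). Beside the fibroblast and pericyte list, 1.18% and 1.71% of all tested chip A probe sets were called in MaSC and MYO against CFC. The summed signal of that list was 18535 to 30757 in CFC, 26498 to 74703 in MYO and 18304 to 40900.4 in MaSC, highest in MYO2, the sample that was also highest for this Cxcl12 probe set and for Cxcl14. The part of such cells in the Cxcl12 and Cxcl14 values was not tested, and in bulk samples fewer cells of a type and less RNA per cell cannot be told apart.

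Cxcr4 was the only receptor called among 20 tested receptor probe sets of 15 genes. Its probe set 1448710_at had signals of 4050.3, 4094 and 4899 in CFC, 394, 233 and 1768 in MYO, and 175, 219 and 896 in MaSC. All CFC samples lay above all others, and the third replicate was the highest of its population in CFC, MYO and MaSC. Means ± SD (n = 3) were 4348 ± 478 in CFC, 798 ± 844 in MYO and 430.0 ± 404 in MaSC. The log2 fold change was -3.16 ± 0.69 in MaSC against CFC (8.95-fold lower, adjusted p = 0.0124) and -2.60 ± 0.69 in MYO against CFC (6.08-fold lower, adjusted p = 0.0458). Since MaSC1, MaSC2 and MYO2 lay below 300, these folds depend on the added 150. With the larger pseudocount the log2 values were -2.53 and -2.14, and with the smaller one -3.66 and -2.94. Without MYO3 the MYO value was -3.29.

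Both Cxcr4 calls lay near the threshold. In MaSC against CFC the adjusted p rose to 0.0684, 0.0741 and 0.087 without CFC1, CFC2 or CFC3 and to 0.0533 without MaSC2. In MYO against CFC it was 0.171, 0.177 and 0.226 without CFC1, CFC2 or CFC3, 0.191 without MYO1 and 0.277 without MYO2. With the scan day as a block the MYO value was 0.0893. The direction held in all of these. On chip A 1.18% and 1.71% of all tested probe sets were called in MaSC and MYO against CFC. Leukocytes express Cxcr4, and of 27 tested leukocyte markers 0 were called in any comparison, near those shares. Their summed signal was 19217 to 32478 in CFC, 18214 to 25126.5 in MYO and 18547 to 37219 in MaSC. Ptprc, the pan-leukocyte surface phosphatase CD45, had signals of 87.7, 607 and 160.3 in CFC, 588, 743 and 236 in MYO, and 643, 43.9 and 124 in MaSC. These overlap in every population, and no marker was listed at 0. The part of leukocytes in the Cxcr4 difference was not tested. Of 12 tested endothelial markers 0 were called, with sums of 10609 to 16267 in CFC, 8857 to 15922 in MYO and 14321 to 23199.5 in MaSC.

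**Figure D1:**
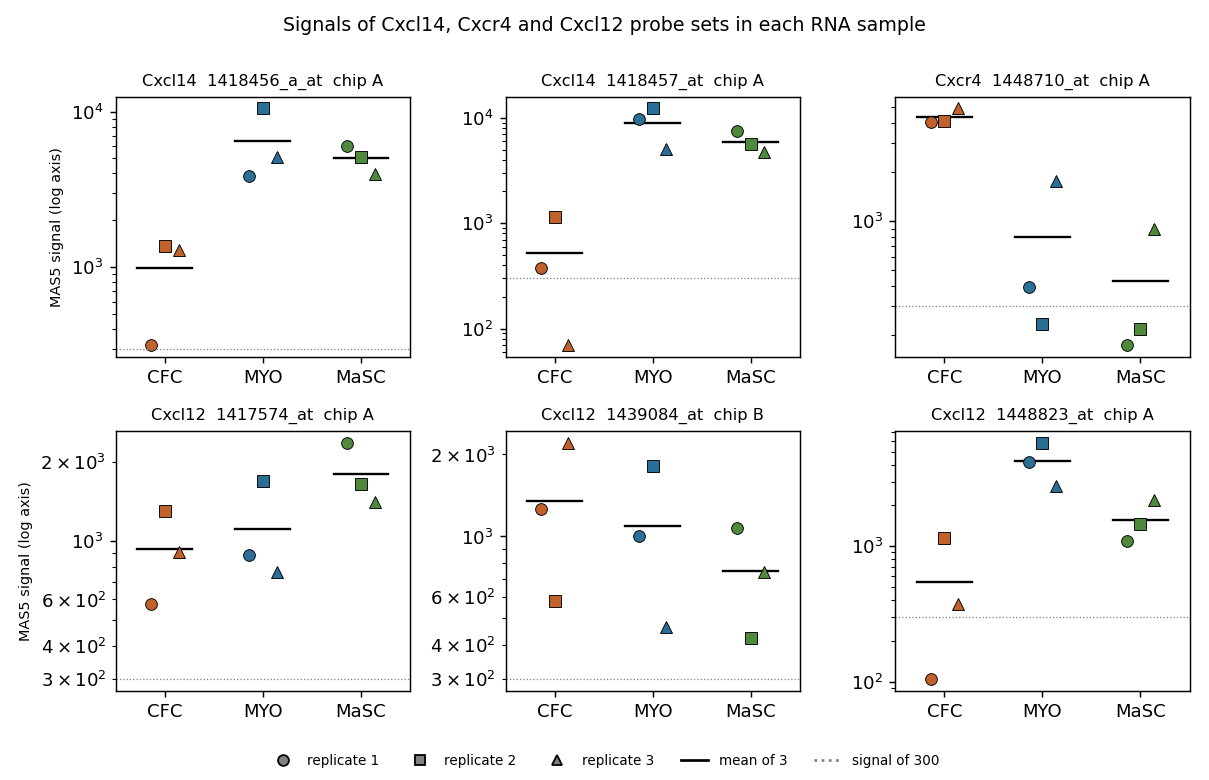
MAS5 signal on a log axis in CFC, MYO and MaSC for both Cxcl14 probe sets, Cxcr4 and the 3 Cxcl12 probe sets; markers are replicates 1 to 3, bars the mean of 3 and the dotted line a signal of 300. CFC samples lie below all others for Cxcl14 and above all others for Cxcr4, while the Cxcl12 probe sets differ in their order of populations.

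The neutrophil-attracting ligands Cxcl1, Cxcl2, Cxcl3, Cxcl5 and Cxcl15 gave 8 tested probe sets and no call. Cxcl1, which binds Cxcr2, varied between RNA samples more than between populations. Its chip A probe set 1419209_at had signals of 15433.5, 2927 and 2773 in CFC, 4693 (MYO1), 9850 (MYO2) and 7381 (MYO3), and 3674, 12974 and 10667 in MaSC. The samples CFC1, MYO2, MaSC2 and MaSC3 were the highest, and they come from all 3 populations. The chip B probe sets 1441855_x_at and 1457644_s_at put the same 4 samples on top, with 41736 or more against at most 29748 in the first, and 81227 or more against at most 42579 in the second. The highest sample exceeded the lowest by 5.57, 5.18 and 6.98 times in the 3 probe sets, and Spearman's rho between them was 0.933 to 0.967 over the 9 samples, which share their RNA. The log2 fold changes in MaSC against CFC were 0.65 to 0.78 and were not called.

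The 4 samples high in Cxcl1 also had the 4 lowest median signals on chip A, 749 to 790.1 against 874 to 961 in the other 5. Of these samples, MYO2 and MaSC3 were scanned on chip A on another day than all other samples. The part of these array properties in the Cxcl1 values was not tested. After quantile normalization the 4 samples stayed highest in 1419209_at and 1457644_s_at, and MYO3 took the place of MYO2 in 1441855_x_at. Cxcl2, another Cxcr2 ligand, had its top 4 samples in MaSC3, MaSC2, MYO3 and CFC1, with a signal of 12543 in MaSC3 and 2056 in MaSC1. It was not called in MaSC against CFC (1.06 ± 0.51, adjusted p = 0.581), and was called without MaSC1 (1.80, adjusted p = 0.0292). Cxcl3 and Cxcl5 each had another set of top samples.

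**Figure D2:**
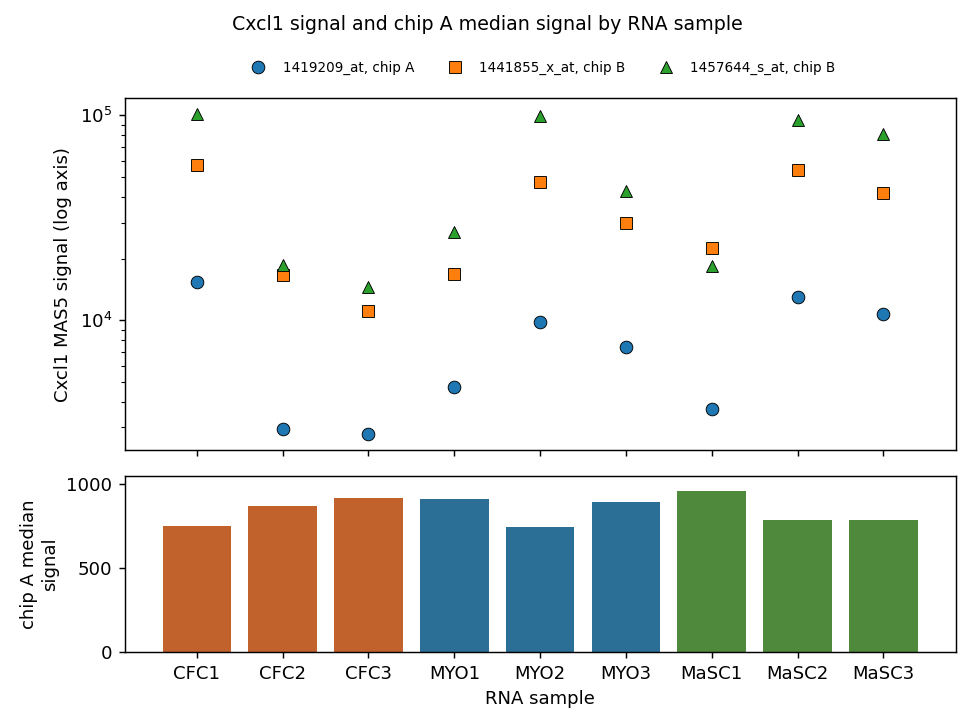
Cxcl1 signal of 3 probe sets on a log axis (top) and the median signal of the chip A array on a linear axis from 0 (bottom) for the 9 RNA samples. CFC1, MYO2, MaSC2 and MaSC3 are the highest for Cxcl1 in all 3 probe sets and have the lowest chip A medians, 749 to 790.1.

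Cxcl15, known in mouse as lungkine, attracts neutrophils. Its chip B probe set 1456428_at had signals of 3760.3, 9649 and 5380.4 in CFC, 1794, 346 and 422 in MYO, and 1116, 4738 and 5441 in MaSC. The MYO samples lay below all CFC samples, and the MaSC samples overlapped with CFC. The difference in MYO against CFC was -2.86 ± 0.68 and was not called (adjusted p = 0.128), although it was called without MYO1 (adjusted p = 0.0397) and without MaSC1 (0.0429). The chip A probe set 1421404_at gave -1.93 ± 0.60 (adjusted p = 0.129), with signals of 1965, 10723 and 4974 in CFC, 1202, 513 and 2233 in MYO, and 710.1, 2604 and 1727 in MaSC. It was called without CFC1 (-2.54, adjusted p = 0.0327).

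The interferon-induced ligands Cxcl9, Cxcl10 and Cxcl11, which bind Cxcr3, gave 4 tested probe sets with log2 fold changes from -0.29 to 1.33 in MaSC and from -0.47 to 0.59 in MYO against CFC, none called. Cxcl13, which guides B cells, Cxcl16, a transmembrane ligand of Cxcr6, and Cxcl17, found in mucosal epithelia, were not called in any comparison. Cxcl17 had signals of 2746, 5628 and 5408 in CFC, 2622, 2565.5 and 2122 in MYO, and 3690.4, 2075 and 1494 in MaSC. The MYO samples were all below CFC, and the difference of -0.81 ± 0.46 was not called (adjusted p = 0.737).

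The CC ligands gave 21 tested probe sets and no call. Among those that attract monocytes and eosinophils, Ccl11 (eotaxin) had signals of 204, 171 and 332 in CFC, 1347, 1687 and 1306 in MYO, and 1512, 613 and 197 in MaSC. The MYO samples lay above CFC, and MaSC spanned both. The difference in MYO against CFC was 2.06 ± 0.76 and not called (adjusted p = 0.288). For the related eosinophil ligand Ccl24 the MaSC samples, at 437, 421 and 399.6, lay just above the CFC samples, at 213, 362 and 379, a difference of 0.30 ± 0.73 (adjusted p = 0.961). Ccl7, a monocyte ligand of Ccr2, had signals of 1196, 844 and 844 in MaSC, below 2129, 1436 and 1413 in MYO (-0.70 ± 0.64, adjusted p = 0.999). Ccl2, the main monocyte attractant, differed by 0.17 ± 0.69 and 0.07 ± 0.69 against CFC in MaSC and MYO.

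Among the CC ligands of lymphocytes and mucosal tissue, Ccl22, a ligand of Ccr4, had signals of 97.01, 201.4 and 314 in CFC, 872, 234 and 2112 in MYO, and 1943, 546 and 1223 in MaSC. MaSC lay above CFC and MYO overlapped with both, and the difference of 1.88 ± 0.79 in MaSC against CFC was not called (adjusted p = 0.455). Ccl20, the ligand of Ccr6, had 1519.95, 1079.98 and 1533 in CFC against 967, 82.4 and 877 in MYO (-1.23 ± 0.80, adjusted p = 0.806). Ccl25, the ligand of Ccr9, had 446, 795 and 908 in MaSC against 197, 73.7 and 99.2 in MYO in probe set 1418777_at (1.65 ± 0.75, adjusted p = 0.999). Its chip B probe set 1458277_at overlapped, with 302, 3587 and 3996 in MaSC and 2485, 236 and 698 in MYO (1.01 ± 0.91, not called). Ccl28, a mucosal ligand known in the lactating gland for attracting antibody-producing cells, reached 300 on all 9 arrays in its chip B probe set 1455577_at. Its signals there ran from 2421 to 6417, and it differed by 0.60 ± 0.52 in MaSC and 0.17 ± 0.52 in MYO against CFC, neither called.

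Cx3cl1 (fractalkine) is a membrane-bound ligand of Cx3cr1 and had 4 tested probe sets, none called. Its chip B probe set 1441884_x_at had signals of 277, 468 and 308 in CFC, 2413, 1641 and 2001 in MYO, and 2406, 1591 and 98.8 in MaSC. The MYO samples lay above CFC, with a difference of 2.12 ± 0.88 (adjusted p = 0.905). In probe set 1415804_at the MaSC samples, at 104, 133 and 79.6, lay below CFC, at 195, 414 and 188, and below MYO, at 1071, 886 and 322. These differences were -0.66 ± 0.68 and -1.72 ± 0.68, neither called. The other probe sets went the other way in MaSC against CFC, at 0.64 (1415803_at), 0.46 (1421610_at) and 1.06 (1441884_x_at). In MaSC against MYO they gave -0.13, 0.15 and -1.05. Xcl1, a T cell attractant, differed by -1.17 ± 0.77 in MaSC against CFC (adjusted p = 0.756).

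The CC receptors gave 14 tested probe sets and no call. Ccr1, a receptor for several inflammatory CC ligands, had signals in 1419609_at of 432, 860.2 and 460.2 in CFC, 154, 52.4 and 118 in MYO, and 200.3, 47.0 and 165 in MaSC. All CFC samples lay above all others, and no MYO or MaSC sample reached 300. The probe set thus passed the filter through its CFC samples alone, so high CFC signals were a condition of its being tested. The differences were -1.35 ± 0.62 in MaSC (adjusted p = 0.542) and -1.48 ± 0.62 in MYO (adjusted p = 0.448) against CFC. The other Ccr1 probe set, 1419610_at, ran the other way, at 0.34 ± 0.65 and 0.72 ± 0.65. Cxcr2, the receptor of Cxcl1, differed by 0.07 ± 0.72 and -0.18 ± 0.72, and Cxcr3 by 0.81 ± 0.65 and 1.20 ± 0.65, in MaSC and MYO. Of 25 listed ligand and receptor pairs, 21 had both members among the 76 probe sets. A gene counted as called here if any of its probe sets was called in either comparison against CFC. Cxcl12 and Cxcr4 was the 1 pair with a call on both sides, and 20 pairs had none. For Cxcl12 that call came from 1 of 3 probe sets and in MYO only.

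**Figure D3:**
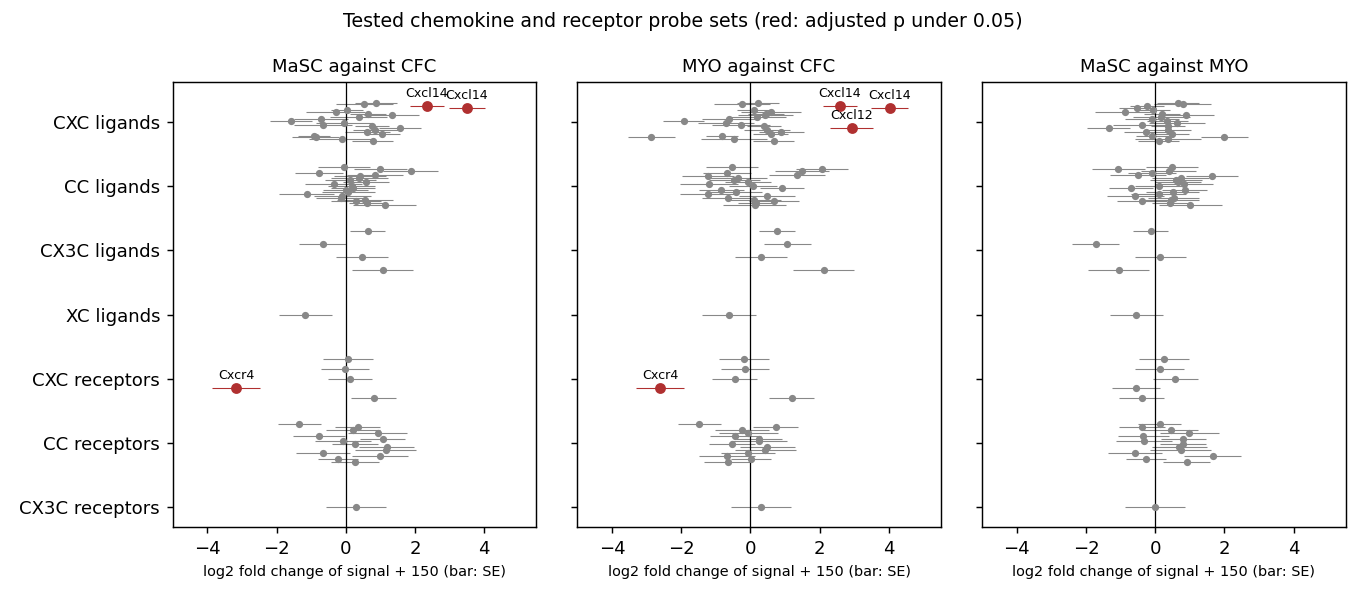
Log2 fold change (bar, SE) of the 68 tested member probe sets by family in the 3 comparisons; red points were called at an adjusted p under 0.05. The called points are Cxcl14 and Cxcl12 on the right and Cxcr4 on the left, and no point is called in MaSC against MYO.

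Counts that do not use the adjusted p were also read against the whole arrays. Samples of the compared populations did not overlap for 8 of 68 members in MaSC against CFC (11.9% of all tested probe sets), 10 in MYO against CFC (12%) and 5 in MaSC against MYO (8.64%), shares near the background. An unadjusted p under 0.05 was reached by 8, 9 and 4 members, against 6.75%, 6.61% and 3.99% of all, and those against CFC include the called ones. The median log2 fold change over the members was 0.29, 0.08 and 0.18, and over all tested probe sets -0.02, -0.01 and -0.01. The within-population SD on the log2 scale had a median of 0.92 over the members on chip A, against 0.81 over all tested probe sets there. Probe sets of the same gene often differed, and those whose names end in _s_at or _x_at can also match related transcripts: of 29 pairs of probe sets in 14 genes, 5 had a Spearman's rho over 0.7 across the 9 samples and 12 a rho below 0.

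Genes that work with the chemokines were read from lists. The share beside each count is that over all tested chip A probe sets, 1.18% called in MaSC and 1.71% in MYO against CFC. Of 7 atypical and other receptors that the symbol rule leaves out, 1 was called, Ackr3, the scavenger receptor of Cxcl12. Ackr3 had signals of 231, 294 and 457 in CFC, 1392, 2587 and 2747 in MYO, and 2118, 2279 and 3598 in MaSC. No sample of MYO or MaSC fell into the CFC range, which runs opposite to Cxcr4. Ackr3 was higher by 2.55 ± 0.58 in MaSC (5.86-fold, adjusted p = 0.0179) and by 2.30 ± 0.58 in MYO (4.92-fold, adjusted p = 0.0291). In MaSC the call was lost without CFC1 (adjusted p = 0.063), CFC2 (0.0558), MaSC2 (0.0663) or MaSC3 (0.149). In MYO it was lost without CFC1 (0.101), CFC2 (0.0795), MYO2 (0.198), MYO3 (0.18) or MaSC3 (0.0539). The list's median fold changes were -0.39 in MaSC and -0.06 in MYO against CFC.

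Of 33 tested genes of chemokine receptor signalling, 1 was called in MaSC and 2 in MYO, all higher, with list medians of -0.12 and -0.23. Over all tested chip A probe sets 1.18% and 1.71% were called, so a list of this length holds few calls at those shares. Gnai1 encodes an inhibitory G protein alpha subunit through which these receptors signal. Its probe set 1454959_s_at had signals of 618, 169 and 67.5 in CFC, 5166, 9580.4 and 3464 in MYO, and 2075, 2893 and 3592 in MaSC, without overlap between CFC and the others. It was higher by 2.96 ± 0.57 in MaSC (adjusted p = 0.00344) and 3.93 ± 0.57 in MYO (adjusted p = 5.03e-05). Its 2 other probe sets were not called, at 1.73 and 0.88 in MaSC and 2.004 and 0.33 in MYO. Rgs2, a regulator that ends G protein signals, had in probe set 1419248_at signals of 1071, 1457 and 2809 in CFC, 41306, 11528 and 2607 in MYO, and 4399, 2019.6 and 5281 in MaSC. MYO1 was far above the others, and MYO3 lay within the CFC range. The difference in MYO against CFC was 2.62 ± 0.61 (adjusted p = 0.0133), and it was lost without CFC1 (adjusted p = 0.0849), CFC2 (0.061), MYO1 (0.329) or MYO2 (0.0706). Of its 3 other probe sets, 1447830_s_at was called in MYO against CFC without overlap (3.19 ± 0.58, adjusted p = 0.00559). Its signals were 3526, 24778 and 3730.5 in CFC, 148764, 62027 and 28741 in MYO, and 16285, 11643 and 28378 in MaSC. That call was lost without CFC1 (adjusted p = 0.0899), CFC3 (0.145) or MYO1 (0.167). Probe set 1419247_at was called with overlap (2.54 ± 0.65, adjusted p = 0.0336) and lost its call in 9 of 20 alternatives, and 1443250_at was not called (0.91 ± 0.85). MYO1 was the highest sample in all 4, and the part of its high Actb ratio in these values was not tested.

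Of 17 tested glycosaminoglycan and protease partners, which present or cleave chemokines, Mmp2 was called in both populations, and the list medians were 0.25 and 0.32. Mmp2 encodes a matrix protease that can cleave Cxcl12. Its signals were 176, 1422 and 1158 in CFC, 13940.0, 15283 and 3220.1 in MYO, and 7231, 3836 and 5265 in MaSC, with CFC below the others. Mmp2 was higher by 2.63 ± 0.56 in MaSC (adjusted p = 0.00965), a call lost without CFC1 (adjusted p = 0.101), and by 3.37 ± 0.56 in MYO (adjusted p = 0.000377). Its other probe set gave 1.39 ± 0.48 (adjusted p = 0.246) and 2.03 ± 0.48 (adjusted p = 0.0147), the latter call lost in 7 of 20 alternatives. Of 29 tested NF-kappaB factors and induced genes and of 14 interferon response regulators 0 were called, with medians between -0.03 and 0.12 against CFC. At the chip A shares of 1.18% and 1.71%, 0 calls are near what lists of this length hold. Of 5 further chemokine genes with other symbols 0 were called. Among these Mif, which can bind Cxcr4, differed by 0.75 ± 0.41 in MaSC and 0.62 ± 0.41 in MYO. In MaSC against MYO 0 genes of any of these lists were called. Without the variance trend, Gnai1 in MYO was the only call of Ackr3, Gnai1, Mmp2, Rgs2 and Col3a1 against CFC that remained. With the scan day as a block the adjusted p was 0.064 and 0.106 for Ackr3 in MaSC and MYO, and 0.0537 for Rgs2 1419248_at and 0.0847 for Col3a1 in MYO.

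**Figure D4:**
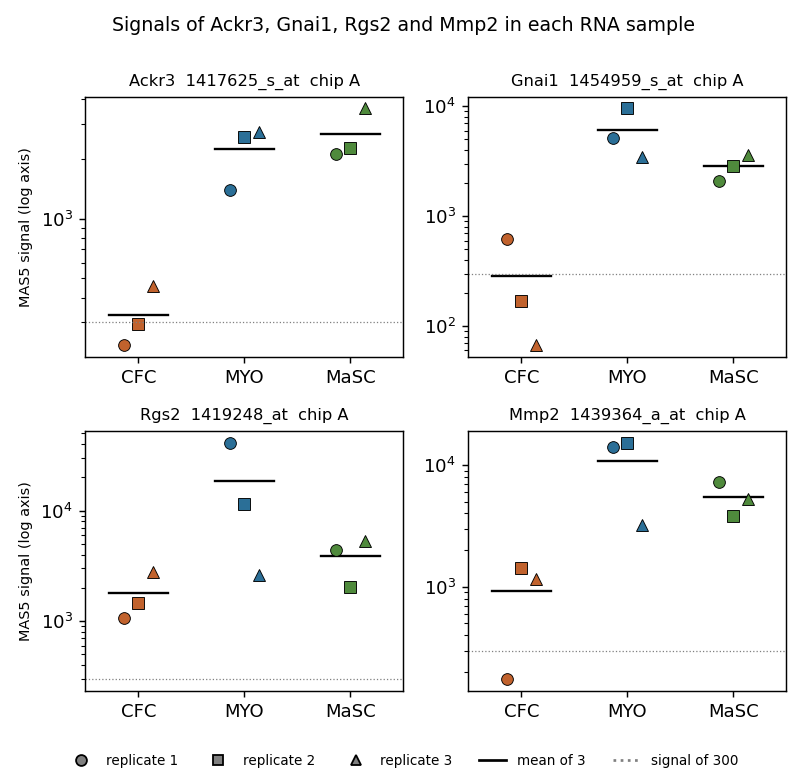
MAS5 signal on a log axis in CFC, MYO and MaSC for Ackr3, Gnai1, Rgs2 and Mmp2; markers are replicates 1 to 3, bars the mean of 3 and the dotted line a signal of 300. CFC lies below all other samples for Ackr3, Gnai1 and Mmp2, and MYO3 lies within the CFC range for Rgs2 probe set 1419248_at.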

How the data were processed

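RNA of 9 samples was measured on chips A and B (18 arrays). The deposited numbers are linear intensities, 1 per probe set and array. MAS5 made them, per the submitters' processing notes, and neither version nor target is given in the sources used here. The deposited handling records hold other values (chip, scan day), and scan days number 2 for chip A and 3 for chip B. On chip A the second day held only MYO2 and MaSC3. On chip B the later days held MYO3, MaSC2 and MaSC3. All CFC arrays were scanned on the first day of each chip, so scan day and population cannot be fully told apart. Detection calls were not used here. Every array had a trimmed mean near 1500, and the authors' scaling was kept. Genes come from the platform annotation; all 76 members matched RefSeq by Entrez identifier, and 4 probe sets with several symbols were left out.

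A pseudocount of 150 was added before log2. Probe sets at 300 or more on at least 3 of 9 arrays were tested, 20159 on chip A and 21394 on chip B; controls were dropped, and the 100 on both chips were tested on chip A. limma 3.58.1 (lmFit, eBayes with trend, R 4.3.3) was fitted once per chip over 9 arrays, with 6 residual degrees of freedom and Benjamini-Hochberg adjustment within the chip. The scripts were tested on simulated data. The number of arrays limits the precision.

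Named with values are called member probe sets with the others of their gene, the 3 largest uncalled differences without overlap per comparison and direction, genes of pairs with a call, and up to 4 called genes of each list. Cxcl1, Cxcl2, Cxcl17, Ccl2, Ccl28, Xcl1, Cxcr2, Cxcr3 and Mif were added after their values were seen. The members, lists and role groups were chosen with earlier results of these data known. In lists a gene is represented by its brightest tested probe set, from chip A where it has one. Alternatives were other pseudocounts (larger: 30% of the chip mean; smaller: 1%) and filters, quantile normalization, no trend, array weights, 2 populations only, replicate number or scan day as a block, and each sample left out.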

Additional observations from a re-analysis of the deposited data

How the results depend on the processing

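Of the alternatives tried, the number of called members changed by over 1.5 times under 4. Without the variance trend it was 1 in MaSC against CFC and 1 in MYO against CFC (from 3 and 4), when calls over all probe sets fell from 258 to 39 and from 372 to 118. With the first scan day only, chosen after seeing the data, it was 1 in MYO against CFC. With each sample left out it ranged from 1 (without CFC1) to 4 in MaSC against CFC, from 1 (without MYO2) to 5 in MYO against CFC, and stayed 0 in MaSC against MYO, where the other alternatives also gave 0. With MYO1 left out, it was 4 in MYO against CFC. Cxcl14 1418457_at kept both calls in all 20 alternatives. Cxcr4 lost its call in 5 of 20 in MaSC and in 11 of 20 in MYO, Cxcl12 1448823_at in 3 of 20 in MYO, and Cxcl14 1418456_a_at in 2 of 20 in MaSC and 3 of 20 in MYO, always with the same direction against CFC. Uncalled differences between MaSC and MYO reversed for Cxcl14 1418456_a_at (0.32 with the first scan day only, -0.54 to 0.17 with each sample left out, the latter without MYO2) and for Cxcr4 (-1.09 to 0.13, the latter without MYO3); the cause was not tested. Cxcl15 1456428_at was called at the stricter filter (adjusted p = 0.0373), and 1421404_at with array weights (0.0379) and with 2 populations (0.0484). With the replicate number as a block, the fit gave 3, 4 and 0 called members, the same probe sets. Same-numbered samples correlated at -0.11 to 0.12 on chip A and -0.07 to 0.08 on chip B in their deviations from the population means. On chips A and B, 3 and 5 of 9 samples correlated best with their own number. The sources used here do not say whether samples of the same number share mice. These values do not settle whether the number is a pairing. Probe sets near the signal of 300 are limited by background, and 8 members were below the filter.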
